A study of Mus musculus with 6 samples.

Results

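Iron and haem handling genes were examined in stem and progenitor cells sorted from the bone marrow of mice in which Raptor (gene symbol Rptor) had been deleted by an inducible recombinase, the subunit that defines the nutrient-sensing kinase complex mTORC1. The set was a fixed list of 10 genes: the uptake receptor Tfrc, the metal transporters Slc11a2 and Slc11a1, the exporter Slc40a1, the ferritin chains Fth1 and Ftl1, the iron sensor Ireb2, the haem synthesis enzymes Alas1 and Fech, and the haem-degrading enzyme Hmox1. Of these, 9 had a probe set naming that gene and no other, among 18193 such genes on the array. The tenth, Ftl1, appeared only on probe sets that also name other genes, and its values are given apart. Where a gene had several probe sets, the brightest on average over the 6 arrays stands for it, with the others reported beside it.

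RNA was measured on 6 single-colour arrays. The 3 Raptor mutant arrays came from C57BL/6 background mice in which both Raptor alleles carried loxP sites at exon 6 and which had the Mx-Cre transgene, whose interferon-responsive promoter makes the recombinase in many cell types besides blood cells. The 3 wild type arrays came from mice with the same floxed alleles and no Cre. Both groups received polyinosinic-polycytidylic acid (pIpC), which induces interferon, in 3 injections of 15 µg per g over 5 days. Cells that carried Sca1 and cKit but neither Flt3 nor lineage markers were sorted 5 weeks later. Neither ages nor the number of mice behind an array are given in the labels, and the p-values reflect array-to-array spread that may include a technical share.

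Iron circulates bound to transferrin and enters cells through the receptor encoded by Tfrc. In the endosome it is reduced and carried into the cytosol by the transporter encoded by Slc11a2. It is then stored in ferritin, exported through ferroportin, or used for haem and iron-sulphur clusters. When iron is scarce, iron regulatory proteins such as the Ireb2 product bind RNA elements that stabilise Tfrc mRNA and block translation of ferritin mRNA. Erythroid precursors take up the most iron in the marrow, while macrophages recover it from old red cells. The arrays measured mRNA, and neither iron nor protein.

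No member was called changed. Of the 9 genes tested, 0 passed a limma adjusted p under 0.05 over all 18193 genes (0 of 9 at an unadjusted p under 0.05), against 0.110% of all genes, or 20. At an unadjusted p under 0.05 the shares of all genes were 5.81% higher and 4.24% lower in mutant arrays, 1828 genes in all. Leaving out wild type array 1 gave 3938 such genes, and leaving out mutant array 2 or 3 gave 1184 or 1066. The groups overlapped in all 9 members, whereas they did not overlap in 16.1% of all genes. Log2 fold changes, mutant minus wild type, ran from -0.52 for Hmox1 to 0.63 for Slc40a1, with 5 above 0, 4 below 0 and a median of 0.057. Over all genes the median was -0.071 and 40.4% lay above 0. With 3 arrays a group, the 95% intervals below show which sizes of change the data still allow. A difference in RNA per cell and a difference in the mix of cells in the sort cannot be told apart in these bulk samples.

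**Figure D1:**
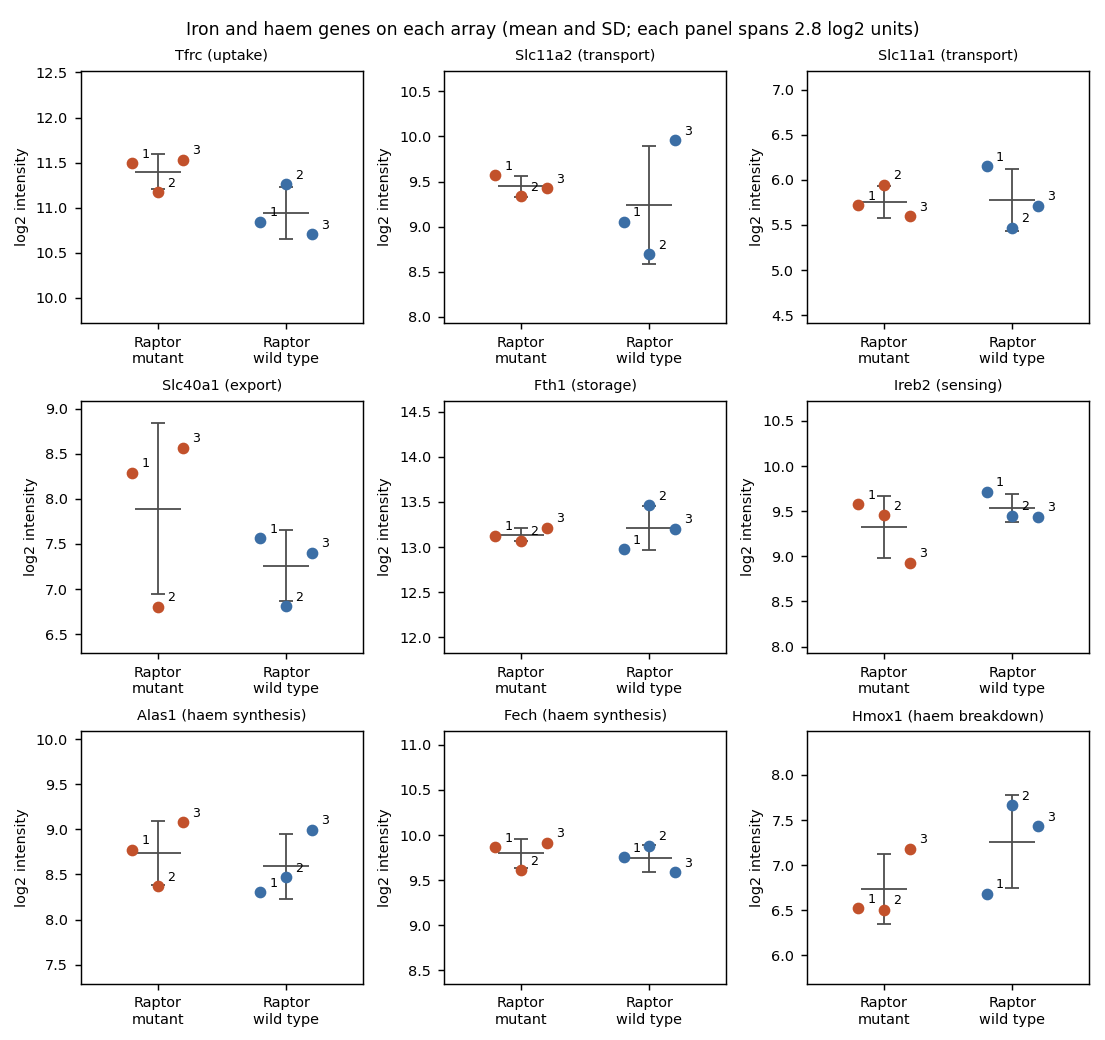
Log2 intensity (y axis) of the 9 members on the 3 Raptor mutant arrays (left, red) and the 3 wild type arrays (right, blue), with array numbers beside the points and bars for mean and SD. In every panel the groups overlap, and the mutant points of Slc40a1 are spread from 6.80 to 8.57.

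The series as a whole bears on these values in a few ways. Correlations across probe sets were 0.985 to 0.988 among mutant arrays and 0.957 to 0.967 among wild type arrays. Wild type array 1 was closer to the mutant arrays (0.977 to 0.984) than to the other wild type arrays (0.962 and 0.967). The Y-linked genes Eif2s3y and Kdm5d were between 3.69 and 4.53 on the 3 mutant arrays, against 3.60 to 3.99 on wild type array 1 and 9.53 to 10.8 on wild type arrays 2 and 3. The labels give no sex. The brightest of 3 Rptor probe sets stood at 8.33 ± 0.35 in mutant and 8.11 ± 0.49 in wild type arrays (SD, n = 3 each), and the other 2 had log2 fold changes of 0.99 and -0.32. None of the 3 was called (adjusted p of 0.56 to 0.79, limma over all probe sets). Where these probes lie relative to the deleted exon was not analysed here, so they do not check the deletion. Among markers of the sorted population, Kit stood at 10.7 to 10.9 on mutant and 10.7 to 11.2 on wild type arrays. Flt3, whose protein was selected against, gave 9.64 to 10.2 on mutant and 9.51 to 10.8 on wild type arrays. Itgam, listed as a lineage marker, stood at 5.28 ± 0.07 in mutant and 6.19 ± 0.53 in wild type arrays (SD, n = 3 each), without overlap. Its log2 fold change was -0.90 (limma adjusted p = 0.31). Of 4 measured genes listed for the negative gate, 4 had a log2 fold change below 0 and 0 were called. Over all genes, 10844 of 18193 lay below 0. Besides Flt3 and Itgam the listed genes were Cd3e and Ptprc. Ptprc was bright, at 11.4 to 11.9 on mutant and 11.5 to 11.9 on wild type arrays, so its RNA was not low in the sorted cells. Cd3e was dim, at 4.08 to 4.37 on mutant arrays and 3.93, 5.94 and 4.22 on wild type arrays. Array medians lay between 6.85 and 6.94, and lower quartiles between 5.15 and 5.37.

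Tfrc encodes the transferrin receptor, the main entry route for iron. Its brightest probe set (1452661_at) had log2 intensities of 11.5, 11.2 and 11.5 on mutant arrays 1, 2 and 3, and of 10.8, 11.3 and 10.7 on wild type arrays 1, 2 and 3. Mutant arrays 1 and 3 were above every wild type array, and mutant array 2 lay just below wild type array 2. Tfrc averaged 11.40 ± 0.20 in mutant and 10.94 ± 0.29 in wild type arrays (SD, n = 3 each), a log2 fold change of 0.46 ± 0.20 (SE) or 1.38-fold, with a limma adjusted p of 0.50. The interval of the fold ran from 0.996 to 1.90. The other probe sets of the gene had log2 fold changes of 0.34 (1422966_a_at) and 0.29 (1422967_a_at). The array also carries 3 control probe sets for mouse Tfrc, made to the 5′ end, the middle and the 3′ end of its transcript, which were left out of the test. Their log2 fold changes were 0.41, 0.71 and 0.38, so that all 6 Tfrc probe sets lay above 0. They measure the same RNA of the same arrays and are not replicates. The groups overlapped at the 5′ control and at neither of the other controls, and they overlapped at all 3 tested Tfrc sets. Over all tested probe sets the groups did not overlap in 15.6%. The 3′ control gave 8.40, 8.23 and 8.65 on mutant arrays and 7.86, 8.09 and 8.19 on wild type arrays. The middle one gave 9.21, 8.89 and 9.51 on mutant arrays and 8.30, 8.72 and 8.49 on wild type arrays.

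Slc11a2, which encodes the divalent metal transporter DMT1 that moves iron out of endosomes, was the member whose probe sets differed most from one another. The brightest (1452078_a_at) gave 9.57, 9.34 and 9.43 on mutant arrays and 9.06, 8.70 and 9.96 on wild type arrays. The mutant values lay inside the wild type range, and the log2 fold change was 0.21 ± 0.31 (SE; limma adjusted p = 0.80), with a fold interval of 0.703 to 1.90. A dimmer probe set (1417584_at) gave 8.63, 6.53 and 9.18 on mutant arrays and 6.70, 4.91 and 6.91 on wild type arrays. Here mutant arrays 1 and 3 stood above every wild type array and mutant array 2 among them. Its log2 fold change was 1.94 ± 0.77 (SE), with an unadjusted p of 0.038 and an adjusted p of 0.51 by limma over 34945 probe sets. At 1441709_at the groups did not overlap, with 6.59, 6.71 and 6.87 on mutant arrays and 6.01, 5.32 and 6.31 on wild type arrays. That log2 fold change was 0.84 ± 0.27 (SE), with an adjusted p of 0.40 by limma over all probe sets, and that of the remaining set (1426441_at) was 0.41 ± 0.28. On wild type array 2, whose lower quartile was 5.30, 1417584_at (4.91) lay below it and 1441709_at (5.32) beside it. The sizes of these 2 changes are therefore not exact. Which transcript forms each set reads was not analysed here.

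Slc11a1 encodes a related metal transporter of phagocyte vesicles, known as NRAMP1. Its single probe set gave 5.72, 5.95 and 5.60 on mutant arrays and 6.15, 5.47 and 5.72 on wild type arrays. These values lay within 1 log2 unit of the lower quartile of the arrays, and no detection calls were used, so a fold there is not exact. The log2 fold change was -0.025 ± 0.21 (SE; limma adjusted p = 0.97), with a fold interval of 0.698 to 1.38.

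Slc40a1, which encodes ferroportin, the iron exporter, had the widest spread among mutant arrays of the 9 members. It stood at 8.29, 6.80 and 8.57 on mutant arrays and at 7.56, 6.81 and 7.40 on wild type arrays. Mutant arrays 1 and 3 were above all wild type arrays, and mutant array 2 was level with the lowest of them. The mean was 7.89 ± 0.95 in mutant and 7.26 ± 0.39 in wild type arrays (SD, n = 3 each), a log2 fold change of 0.63 ± 0.45 (SE; limma adjusted p = 0.65) with a fold interval of 0.751 to 3.19. Without mutant array 2 the log2 fold change was 1.17 (limma adjusted p = 0.41), and without mutant array 3 it was 0.29 (adjusted p = 0.88). The dimmer probe set (1448566_at) gave 6.43, 6.34 and 7.16 on mutant arrays and 6.14, 6.39 and 6.07 on wild type arrays, where mutant array 3 stood above the other 5 arrays.

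Mutant array 2 was the lowest mutant array for 7 of the 9 members, and for 28.1% of all genes. The exceptions were Slc11a1, which was highest there, and Ireb2. For some of the 7 the margin was small, such as Hmox1 (6.505 against 6.525 on mutant array 1) and Fth1 (13.07 against 13.12 on mutant array 1). Of 7 erythroid markers, Klf1, Epor and Ermap were also lowest on mutant array 2 among mutant arrays, whereas Hba-a1, Slc4a1 and Epb42 were highest there and Rhag lay between. Hba-a1, Slc4a1, Epb42 and Rhag were dim, at 4.45 to 6.48 on mutant arrays, and no detection calls were used. Klf1, Epor and Ermap stood at 8.22 to 10.9 on those arrays. The summed linear intensity of the 7 was 3347, 1277 and 3209 on mutant arrays 1, 2 and 3, against 1321, 1879 and 2356 on wild type arrays. The brightest of them on mutant arrays 1 and 3, Ermap, a membrane protein gene of erythroid cells, gave 10.9, 8.33 and 10.5 on mutant arrays and 9.14, 9.17 and 9.98 on wild type arrays. The haemoglobin gene Hba-a1 was low throughout, at 5.88 to 6.29 on mutant and 6.21 to 6.31 on wild type arrays. Log2 fold changes were above 0 for 4 of the 7 markers, and none was called (smallest limma adjusted p of 0.54; 0 of 7 at an unadjusted p under 0.05). The part of erythroid cells in the Slc40a1, Slc11a2 and Tfrc values was not tested.

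**Figure D2:**
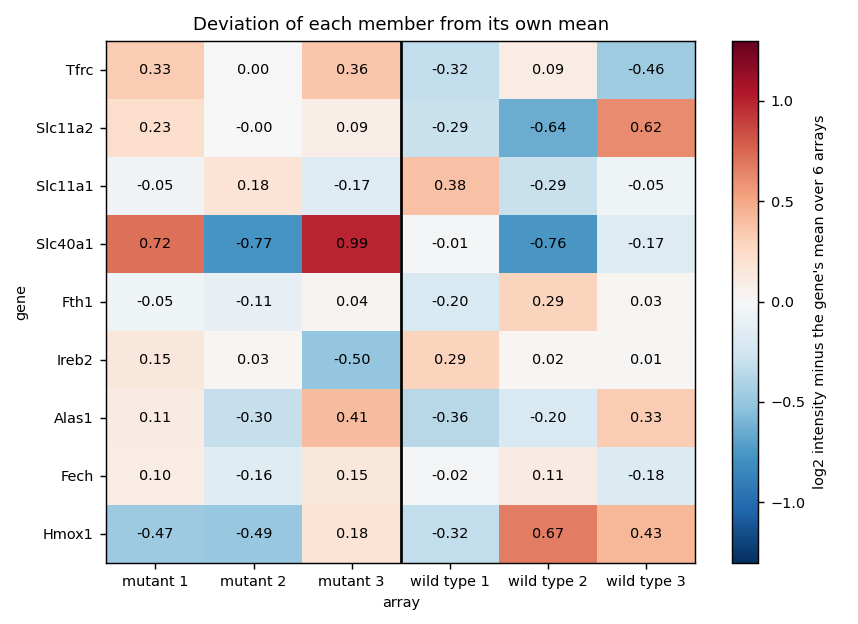
Log2 intensity of each member (rows) on each array (columns; 3 mutant, then 3 wild type) minus the mean of that gene over all 6 arrays, printed in each cell and coloured from blue (below the mean) to red (above it). Slc40a1 deviates by 0.72 and 0.99 on mutant arrays 1 and 3 and by -0.77 on mutant array 2, and Hmox1 by 0.67 and 0.43 on wild type arrays 2 and 3.

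Fth1 encodes the heavy chain of ferritin, the iron storage protein. Its brightest probe set gave 13.1, 13.1 and 13.2 on mutant arrays and 13.0, 13.5 and 13.2 on wild type arrays, so the mutant values lay inside the wild type range. The log2 fold change was -0.078 ± 0.17 (SE; limma adjusted p = 0.87), with a fold interval of 0.715 to 1.25, and the other probe set gave 0.081. For the light chain Ftl1, 2 probe sets were shared with the pseudogene Ftl1-ps2 and 1 named 5 genes in all, so no value can be assigned to Ftl1 alone. The 2 sets shared with the pseudogene had log2 differences of 0.33 (1418364_a_at) and 0.36 (1422302_s_at), with overlapping groups. The brighter of them gave 12.0, 11.9 and 12.3 on mutant arrays and 11.3, 12.0 and 11.8 on wild type arrays.

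Ireb2 encodes an iron regulatory protein that is degraded when iron is plentiful. It stood at 9.58, 9.46 and 8.93 on mutant arrays and at 9.72, 9.45 and 9.44 on wild type arrays. Mutant array 3 alone was low, and the log2 fold change was -0.21 ± 0.21 (SE; limma adjusted p = 0.71), with a fold interval of 0.615 to 1.21. Without mutant array 3 it was -0.018, and without mutant array 1 it was -0.34.

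Alas1 catalyses the first step of haem synthesis in most cells. Its brightest probe set gave 8.77, 8.37 and 9.08 on mutant arrays and 8.30, 8.47 and 8.998 on wild type arrays. The other Alas1 set gave a log2 fold change of 0.12. The groups of the brightest set covered nearly the same range, with a log2 fold change of 0.15 ± 0.25 (SE; limma adjusted p = 0.83) and a fold interval of 0.738 to 1.67. Fech encodes ferrochelatase, which inserts iron into the ring in the last step. The brightest Fech probe set (1418699_s_at) gave 9.87, 9.61 and 9.92 on mutant arrays and 9.75, 9.88 and 9.59 on wild type arrays, a log2 fold change of 0.057 ± 0.17 (SE; limma adjusted p = 0.90) with a fold interval of 0.796 to 1.36. The dimmest Fech probe set (1427696_at) was the other of the 2 sets, among 20 naming a single member, whose groups did not overlap. It gave 6.97, 6.71 and 6.34 on mutant arrays and 6.15, 5.74 and 6.25 on wild type arrays, with a log2 fold change of 0.63 ± 0.23 (SE; limma adjusted p = 0.48 over all probe sets). The wild type values were near the lower quartile of their arrays, so the size of that change is not exact. The remaining Fech sets, 1418698_a_at and 1449181_at, had log2 fold changes of 0.44 and 0.048. Over all probe sets the groups did not overlap in 15.6%.

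Hmox1 encodes the inducible haem oxygenase, which breaks haem down and frees its iron. It was the member with the lowest log2 fold change. It stood at 6.53, 6.51 and 7.18 on mutant arrays and at 6.68, 7.67 and 7.43 on wild type arrays. Wild type arrays 2 and 3, which carry Y-linked signal, were above all the others, and wild type array 1 lay within the mutant range. Hmox1 averaged 6.74 ± 0.38 in mutant and 7.26 ± 0.51 in wild type arrays (SD, n = 3 each), a log2 fold change of -0.52 ± 0.30 (SE; limma adjusted p = 0.59), with a fold interval of 0.429 to 1.13. The log2 fold change was -0.81 without wild type array 1 and -0.32 without wild type array 2. Against wild type array 1 alone it was 0.054.

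**Figure D3:**
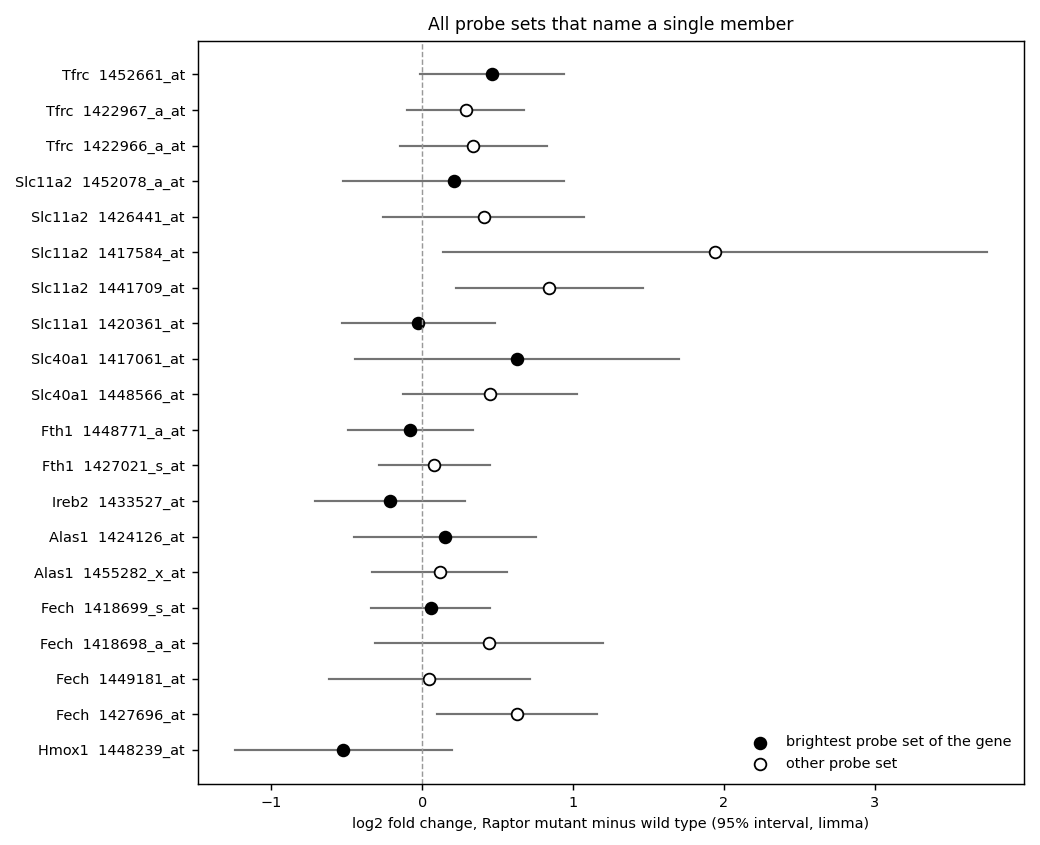
Log2 fold change, Raptor mutant minus wild type (x axis), with its 95% interval by limma for each of the 20 probe sets that name a single member (rows), filled where the set is the brightest of its gene. The intervals of 17 sets cross 0, and the 3 that do not are 1417584_at and 1441709_at of Slc11a2 and 1427696_at of Fech, none of them called.

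Of these 20 probe sets, 16 had a log2 fold change above 0, among them 4 of Slc11a2, 4 of Fech and 3 of Tfrc. Sets of the same gene measure the same RNA and are not replicates. By gene, 5 of 9 members lay above 0, against 40.4% of all genes. The share of all probe sets above 0 was not analysed here. An unadjusted p under 0.05 was reached by 3 of the 20, against 9.39% of all probe sets, and none had an adjusted p under 0.05, against 0.0343% of all probe sets.

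The remaining genes of iron and haem metabolism were taken as a list of 69, of which 64 were measured. None was called by limma over all genes, while an unadjusted p under 0.05 was found for 6 of 64 (9.38%), and for 1828 of the 18193 genes. That count of 6 was 14 and 10 without wild type arrays 1 and 2, and 4 without mutant array 1, mutant array 3 or wild type array 3. In 9 of them (14.1%, against 16.1% of all genes) the groups were fully separated. The median log2 fold change was -0.018, with 31 above 0 and 33 below. The values that follow describe genes that did not pass the test.

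Uptake and reduction genes held both ends of the list. Steap3, the endosomal reductase that prepares iron for Slc11a2 in erythroid cells, stood at 9.01, 8.43 and 8.30 on mutant arrays and at 7.62, 7.92 and 7.29 on wild type arrays. All mutant values were above all wild type values, with a log2 fold change of 0.97 ± 0.25 (SE; limma adjusted p = 0.24). For Slc39a8, a metal importer, the groups did not overlap either (log2 fold change 0.63 ± 0.22; limma adjusted p = 0.42). Lcn2, which encodes lipocalin, a binder of iron-carrying siderophores stored in neutrophil granules, gave 6.90, 7.38 and 6.43 on mutant arrays and 8.65, 9.08 and 8.23 on wild type arrays. The log2 fold change of Lcn2 was -1.75 ± 0.30 (SE; limma adjusted p = 0.13), and that of Scara5, a ferritin receptor, was -0.29 ± 0.16. Scara5 was dim, at 4.43 to 4.92, below the lower quartile of every array, so its change is not exact.

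Most neutrophil markers stood low on the same arrays as Lcn2. Of 7 such markers, 6 had a log2 fold change below 0 and 1, the cathelicidin gene Camp, was called (limma adjusted p = 0.030). Their summed linear intensity was 10778 to 14310 on mutant and 26066 to 34055 on wild type arrays. For haptoglobin (Hp), a plasma scavenger of haemoglobin that neutrophils also store, the log2 fold change was -0.52 ± 0.18 (SE; limma adjusted p = 0.42). The part of neutrophil RNA in the Lcn2 and Hp values was not tested.

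Among haem synthesis genes, Clpx, a mitochondrial unfoldase that acts on the enzyme of the first step, had a log2 fold change of 0.56 ± 0.22 and Cpox, a late enzyme, one of 0.48 ± 0.28 (SE; limma adjusted p of 0.46 and 0.60). The porphyrin transporter gene Abcb6 had one of -0.34 ± 0.17 and the erythroid gene Alas2 one of -0.34 ± 0.24. Of 12 such genes, 5 lay above 0. For haem transport and breakdown, 8 of 11 lay above 0. The haem exporter gene Flvcr1 gave 8.73, 8.23 and 9.21 on mutant arrays and 8.28, 8.22 and 7.10 on wild type arrays, where wild type array 3 stood apart. Its log2 fold change was 0.86 ± 0.37 (SE; limma adjusted p = 0.50). The transporter genes Slc46a1 and Abcg2 had log2 fold changes of -0.64 and -0.18, and Nfe2l2, a transcription factor gene of the oxidative stress response, one of 0.35.

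Of 10 genes for mitochondrial iron and iron-sulphur clusters, Iscu, the scaffold on which clusters are built, stood lowest relative to wild type, with 9.95, 9.95 and 9.53 on mutant arrays and 10.6, 10.3 and 10.3 on wild type arrays. The groups of Iscu did not overlap, and its log2 fold change was -0.57 ± 0.18 (SE; limma adjusted p = 0.36). Isca1, another cluster assembly gene, had a log2 fold change of -0.29, and Slc25a37, the mitochondrial iron importer mitoferrin, and Lyrm4 had ones of 0.39 and 0.25. Among the listed roles, iron sensing genes covered the narrowest range, with the member Ireb2 (-0.21) left out. Their log2 fold changes ran from -0.059 for Skp1 to 0.11 for Cul1, with -0.053 for Aco1, the other iron regulatory protein, and 0.11 for Fbxl5, the ligase subunit that marks the Ireb2 product for degradation.

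Of 4 storage and chaperone genes, Ncoa4, the receptor that delivers ferritin to lysosomes, had a log2 fold change of 0.20 and Pcbp2, an iron chaperone, one of 0.020. Ftmt, mitochondrial ferritin, had one of -0.017. Genes of export and systemic control ran from -0.33 for Tmprss6, a protease that lowers hepcidin, to 0.34 for Bmp6, an inducer of hepcidin, with 0.23 for Smad7 and -0.23 for Hfe. Apart from Hp, the scavenging genes were Lrp1, a receptor for haem bound to haemopexin, at 0.71 ± 0.33 (SE; limma adjusted p = 0.54), haemopexin (Hpx) itself at -0.31, and the macrophage receptor Cd163 at -0.35. Ftmt (log2 intensity 4.36 to 4.90) and Hpx (4.54 to 5.30) lay at or below the lower quartile of the arrays, and Hfe (4.95 to 5.81) near it. No detection calls were used, so these changes are not exact.

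**Figure D4:**
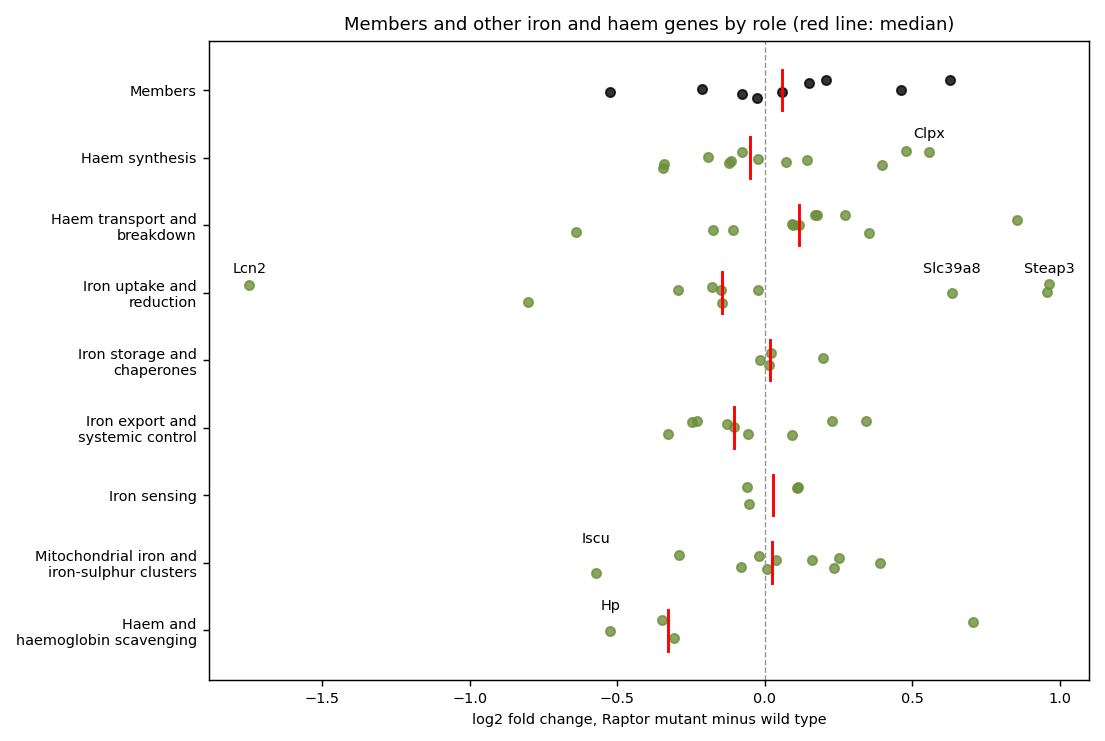
Log2 fold change, Raptor mutant minus wild type (x axis), of the 9 members (top row, black) and of the 64 other measured genes by role (green), with a red line at the median of each row. Names mark the 6 genes with an unadjusted p under 0.05, from Lcn2 at -1.75 to Steap3 at 0.97, none of which was called after adjustment.

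Macrophages express Slc40a1, Hmox1, Slc11a1 and Cd163. Of 12 macrophage markers, 9 had a log2 fold change above 0 and 0 were called by limma (at an unadjusted p under 0.05, 4 above 0 and 1, Spic, below). Their summed linear intensity was 2017 to 2837 on mutant and 1112 to 1393 on wild type arrays. C1qb, with the highest log2 fold change of the 12 (2.57), stood at 8.85, 7.55 and 9.03 on mutant arrays and at 6.15, 6.16 and 5.40 on wild type arrays. C1qa and C1qc had smaller ones of 0.28, with overlapping groups, and 0.58, without overlap. Spic, a factor of red pulp macrophages, stood at 4.73, 4.91 and 4.78 on mutant arrays and 5.91, 4.92 and 5.69 on wild type arrays. Adgre1 lay at 4.26 to 4.98 on mutant and 4.51 to 5.11 on wild type arrays. Spic and Adgre1 were thus near or below the lower quartile of the arrays, where a fold is not exact. Mast cell and basophil markers summed to 4960 to 7714 on mutant and 1878 to 2728 on wild type arrays, with 6 of 8 above 0 and 0 called by limma (5 at an unadjusted p under 0.05). Stem and progenitor markers summed to 8415 to 9496 on mutant and 11869 to 13759 on wild type arrays, with 6 of 7 below 0 and 1, the receptor gene Tek, called. The part of these cell types in the members' values was not tested.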

How the data were processed

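Each array has a single intensity per probe set, deposited by the authors. Per the submitters' processing notes these come from RMA, which corrects background, normalizes between arrays and summarises probes. No RMA version is given in the sources used here. Values were linear (7.6 to 33795), so log2 was taken. Of 45101 probe sets, 64 controls, 9160 naming no gene and 932 naming several were left out. Symbols come from a platform annotation table, with 34741 of 34945 probe sets matched to GRCm38.p6 genes by Entrez identifier and 0 symbols changed. Coordinates are not reported, since no build is named. Mutant was compared with wild type by limma 3.58.1 in R 4.3.3 (lmFit, eBayes, no covariate, no filter on dim genes) over all genes, or over all probe sets where stated, two-sided, with Benjamini-Hochberg adjustment. The procedure was tested on simulated data. Array number limits the precision.

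The members and lists were chosen with earlier results of these data known. All 10 members are named. Other pathway genes are named by rule: those called, and in each role up to 2 per direction with the smallest p. Cd163, Adgre1, C1qa, C1qb, C1qc, Spic, Klf1, Epor, Ermap, Rhag, Hba-a1, Slc4a1, Epb42, Mpo, Kit, Flt3, Itgam, Cd3e and Ptprc were added after their values were seen. No member's group means differed by 1 on the log2 scale, so 0 genes of like pattern were sought. The other 5 entries of the pathway list were not analysed here. The alternatives tried were a replicate block, median centring, quantile normalization again, averaging the probe sets of a gene, a fit with each probe set as a row, dropping the dimmest 25% or 50% of genes, trend and robust fitting, Y-linked signal (mean log2 of Eif2s3y, Kdm5d and Uty) as a covariate and leaving out each array in turn. Leaving out wild type arrays 2 and 3 was added after the data were seen.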

Additional observations from a re-analysis of the deposited data

How the results depend on the processing

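Across 16 alternatives 0 members and 0 of the other pathway genes were called by limma, with 0 to 2 members at an unadjusted p under 0.05 and a smallest member adjusted p of 0.18 (Hmox1 without wild type array 1). Tfrc, Slc40a1 and Ireb2 kept their direction in all of them, though Ireb2 ran from -0.34 to -0.018 with 1 array left out. Directions turned as follows, none of them with a call, and the cause was not tested. Slc11a1 had a log2 fold change of 0.12 after quantile normalization again. Fth1 had one of 0.001 with the mean of its probe sets, 0.15 with the Y-linked covariate and 0.16 without wild type arrays 2 and 3. Hmox1 had one of 0.020 with the Y-linked covariate and 0.054 without those arrays; both settings set the mutants against wild type array 1. In the second that lone array is assumed to vary like the mutants, so its p-values measure no spread among wild type arrays. With 1 array left out, values ran from -0.18 to 0.16 for Slc11a1 (turned without mutant array 3 or wild type array 1), -0.063 to 0.57 for Slc11a2 and -0.20 to 0.046 for Fth1 (both without wild type array 2), -0.019 to 0.35 for Alas1 (without mutant array 3), -0.81 to -0.32 for Hmox1 (not turned) and -0.019 to 0.15 for Fech (without mutant array 3 or wild type array 3). The mean of 4 probe sets gave Slc11a2 0.85 (adjusted p = 0.41). Over all genes, calls were 20 in the main test. They numbered 10 with the replicate block, 6 after quantile normalization again, 12 with every probe set as a row, 40 with trend and robust fitting, 0 with the Y-linked covariate (1167 at an unadjusted p under 0.05) and 0 without wild type arrays 2 and 3 (1729). With 1 array left out they ran from 5 (without wild type array 3) to 31 (without wild type array 1), with 10 and 9 without mutant arrays 1 and 3. Replicate numbers were not taken to pair the arrays. Deviations of same-numbered arrays from their group means correlated across genes at 0.184, -0.026 and 0.063. Other pairs of a mutant and a wild type array gave -0.156 to 0.094. With 3 arrays a group these values cannot exclude a pairing. The replicate block changed no call of a member. With it, 1994 genes and 9 pathway genes had an unadjusted p under 0.05, against 1828 and 6. The smallest pathway adjusted p by limma was 0.055 with the block and 0.131 in the main test. For Slc40a1 the unadjusted limma p was 0.052 and 0.20. The detection of dim probe sets such as that of Slc11a1 is unknown, and the values in the lower 50% of genes (Slc11a1, Hmox1) could not be refitted under that filter.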
